A study of Mus musculus with 8 samples.

Results

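Foxj1, Rsph1, Ccdc153, Tmem212, Dynlrb2, Mlf1, Spag17, Dnah11, Cfap126 and Hydin, 10 genes of the motile cilium, were followed through polyA-RNA sequencing of the mouse hippocampus. They were chosen by name as genes that ependymal cells use to build and move their cilia, and they are 10 of the 40659 gene identifiers in the count table. All 10 passed the filter on low counts, as did 17252 genes in all.

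Ependymal cells line the brain ventricles, and their tufts of motile cilia move the cerebrospinal fluid. Each motile cilium is built on a ring of microtubule doublets around a central pair. Dynein arms slide the doublets against each other, and the radial spokes, the central pair and the nexin-dynein regulatory complex control when they do so. The epithelium of the choroid plexus, which secretes the cerebrospinal fluid into the same ventricles, is also ciliated and also uses Foxj1.

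The 8 libraries came from male wild-type C57BL/6JRj mice, 4 in each of 2 groups. All mice received a recombinant adeno-associated virus (rAAV) by stereotactic injection into the dorsal and the ventral hippocampus at postnatal week 7 to 8. The virus of the hp708 group carried a hairpin that overexpresses miR-708-5p, placed behind EGFP and driven by the human synapsin (hSYN) promoter, which is active in neurons. The virus of the hpCTL group, CTRL in the sample labels, carried a control hairpin. Whole hippocampi were taken 4 weeks after surgery, the tissue being labelled as of postnatal week 12 to 13. The label of hp708 replicate 1 is contradicted by another data sheet on the same animals, where this mouse stands as hpCTL, so the comparison of the 10 genes is also given without it.

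Total counts lay between 22675582 and 28462428 per library in hpCTL and between 22606824 and 27482234 in hp708. The motile cilia genes took 0.00241% to 0.0079% of them. Values are given as CPM, the counts scaled to a common depth by library sizes that were normalized with the TMM method. In bulk tissue, fewer cells of a type and less RNA per cell cannot be told apart, and a level cannot be assigned to a cell type. Mir708, the precursor gene of the microRNA, had 0 counts in each library, so the libraries give no direct check of the overexpression. Its host gene Tenm4 ranged from 111 to 202 CPM over the 8 libraries, with a log2 fold change of 0.11 (adjusted p = 0.734, edgeR's quasi-likelihood test).

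The sequence that hp708 delivers is shown first, because its seed decides which transcripts it can pair with. Mature miR-708-5p (RefSeq, GRCm38.p6, chr7:96249450-96249472, plus strand) carries its seed, bases 2 to 8, in capitals in the following line.
miR-708-5p: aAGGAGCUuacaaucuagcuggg
A site for this seed (AGCTCCT, or GCTCCTA where an A follows a shorter match) was present in 0 of the 10 motile cilia genes, searched in the longest 3'UTR of each. Among the tested genes with a 3'UTR, 3927 of 14808 (26.5%) had a site. The 3'UTRs of the 10 genes ran from 127 bases (Tmem212) to 7124 (Mlf1), and all but Mlf1 had at most 1006 (Foxj1). The share among genes with 3'UTRs of like length was not counted.

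The promoters are shown because motile cilia genes are known to be switched on together, by FOXJ1 through a forkhead motif and by the RFX factors through the X-box. Of the 10 genes, 8 were matched in the RefSeq promoter table (GRCm38.p6), Foxj1 and Rsph1 being the others. The 250 bases before each annotated gene start were searched on both strands for the forkhead motif GTAAACA, the core X-box motif GTTGCC and the full X-box, which reads GT, 2 free bases, CC, 3 free bases, G, 2 free bases and AC. The following stretches are written along the plus strand with the matches in capitals.
Ccdc153: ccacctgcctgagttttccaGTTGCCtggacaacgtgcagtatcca
Cfap126: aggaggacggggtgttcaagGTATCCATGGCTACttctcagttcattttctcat
Dynlrb2: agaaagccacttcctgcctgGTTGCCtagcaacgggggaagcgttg
Hydin: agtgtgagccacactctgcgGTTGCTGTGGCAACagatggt
Mlf1: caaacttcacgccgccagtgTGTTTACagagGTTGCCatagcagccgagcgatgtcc
These stretches are at chr9:44240505-44240550 for Ccdc153, chr1:171122943-171122996 for Cfap126, chr8:116504944-116504989 for Dynlrb2, chr8:110266936-110266976 for Hydin and chr3:67373961-67374017 for Mlf1. Their first capital stands 152, 82, 51, 21 and 116 bases before the gene start, in that order. The core motif was present in Ccdc153, Dynlrb2, Mlf1 and Hydin, against 10.4% of 32851 promoter windows of the same length, and in Hydin it is part of the full X-box. The 8 genes had 10 windows, 3 of them for Cfap126. The full X-box was present in Hydin and in 1 of the 3 windows of Cfap126, against 3.81% of the windows, and the forkhead motif in Mlf1, against 3.17%. A match describes letters in this window and was not tested as a binding site.

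Per kilobase of annotated exons (CPM per kb, mean ± SD of the 8 libraries), Foxj1 stood highest with 5.66 ± 1.93. It was followed by Rsph1 with 3.80 ± 1.51, Tmem212 with 3.20 ± 1.27, Ccdc153 with 2.59 ± 0.801, Dynlrb2 with 1.83 ± 0.766 and Cfap126 with 1.67 ± 0.563. Mlf1 with 0.233 ± 0.139, Dnah11 with 0.179 ± 0.0798, Hydin with 0.144 ± 0.0590 and Spag17 with 0.106 ± 0.0426 formed the lower end. The step from Cfap126 to Mlf1 was wider than the spread of either gene, while each of the other neighbours in this order lay within 1 SD of the larger spread. On this scale Foxj1 was at percentile 63.0 of the tested genes and Spag17 at percentile 1.81. The precision of these levels was limited by the counts, which went from 9 (Spag17 in hpCTL replicate 3) to 683 (Foxj1 in hp708 replicate 2). Their order also depends on the annotated exon length. Mlf1 and Dynlrb2 had a mean of 2.05 and 2.10 CPM, but 8783 and 1148 bases of annotated exons.

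Foxj1, the forkhead factor that starts the motile cilia programme, lies on chromosome 11 of GRCm39 from 116221530 to 116226225 (minus strand). It had 12.7, 15.3, 10.7 and 22.3 CPM in hpCTL replicates 1 to 4. In hp708 replicates 1 to 4 it had 18.6, 29.7, 14.5 and 17.9 CPM. Only hp708 replicate 2 exceeded the highest hpCTL library, and hpCTL replicates 1 and 3 lay below every hp708 library. The group means were 15.3 ± 5.09 CPM in hpCTL and 20.2 ± 6.59 CPM in hp708 (SD, n = 4 each). The log2 fold change of Foxj1 was 0.29 (standard error (SE) 0.16, adjusted p = 0.724, edgeR's quasi-likelihood test in a fit with 3 surrogate variables). Without surrogate variables, which stand for unknown sources of variation, it was 0.40 (SE 0.26, adjusted p = 0.999).

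Among the motor subunits, Dnah11 encodes a heavy chain of the outer dynein arm (chromosome 12, 117841717 to 118162778, minus strand). It had 1.21, 2.58, 1.07 and 3.23 CPM in hpCTL replicates 1 to 4 and 3.88, 4.26, 2.17 and 2.31 CPM in hp708 replicates 1 to 4. The 2 highest libraries were hp708 replicates 1 and 2, but hp708 replicates 3 and 4 lay below hpCTL replicates 2 and 4, so the groups overlapped. Its log2 fold change was 0.63 (SE 0.24) with an unadjusted p of 0.0323 and an adjusted p of 0.613 in the edgeR test with surrogate variables, the lowest adjusted p among the 10 genes. Without surrogate variables the SE was 0.39 for a log2 fold change of 0.64 (unadjusted p = 0.128 in the same edgeR test). With surrogate variables but without hp708 replicate 1, whose label is contradicted, Dnah11 had 0.40 (adjusted p = 0.653, same edgeR test). Ccdc153 then had the lowest adjusted p of the 10 genes. Exons of Cdca7l on the opposite strand cover 642 bases (4.44%) of the Dnah11 exons.

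Dynlrb2 encodes a roadblock-type light chain of dynein (chromosome 8, 117231593 to 117242662, plus strand). It had 1.96, 1.57, 1.07 and 2.59 CPM in hpCTL and 2.39, 3.91, 1.58 and 1.69 CPM in hp708, replicates 1 to 4 each. The hp708 mean of 2.39 ± 1.07 CPM rested on replicate 2, and the other hp708 libraries lay inside the hpCTL range. The log2 fold change was 0.32 (SE 0.22, adjusted p = 0.785, same edgeR test). Its paralog Dynlrb1, a light chain of cytoplasmic dynein found in most cells, had 83.2 to 129 CPM over the 8 libraries and a log2 fold change of -0.11 (adjusted p = 0.680).

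Rsph1 and Ccdc153 belong to the parts that regulate the motors. Rsph1 encodes a radial spoke head protein (chromosome 17, 31473993 to 31496378, minus strand). It had 5.89, 5.07, 2.91 and 5.63 CPM in hpCTL and 7.76, 10.4, 3.96 and 5.08 CPM in hp708, replicates 1 to 4 each. As for Dnah11, hp708 replicates 1 and 2 were above and hp708 replicates 3 and 4 within the hpCTL range. Its log2 fold change was 0.43 (SE 0.17), with an unadjusted p of 0.0382 and an adjusted p of 0.632 in edgeR's quasi-likelihood test. Exons of Slc37a1 on the opposite strand cover 149 bases (9.70%) of the Rsph1 exons, and reads from both cannot be told apart without strand.

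Ccdc153 encodes a coiled-coil protein of the nexin-dynein regulatory complex (chromosome 9, 44151973 to 44158614, plus strand). It had 5.71, 4.33, 2.83 and 5.29 CPM in hpCTL and 4.53, 8.61, 5.67 and 5.62 CPM in hp708, replicates 1 to 4 each. Here hp708 replicate 1 was the lowest of its group, below 2 of the hpCTL libraries. Its log2 fold change was 0.36 (SE 0.22, adjusted p = 0.751). With surrogate variables it was 0.66 without hp708 replicate 1 (adjusted p = 0.212, edgeR's quasi-likelihood test) and 0.14 without hpCTL replicate 3.

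Hydin and Spag17 encode large proteins of the central pair. Hydin (chromosome 8, 110993583 to 111337133, plus strand) had 1.46, 2.93, 0.902 and 2.85 CPM in hpCTL and 3.23, 4.26, 3.28 and 2.15 CPM in hp708, replicates 1 to 4 each. It was the member with 3 hp708 libraries above the highest hpCTL library, and hp708 replicate 4 fell between the hpCTL libraries. Its log2 fold change was 0.69 with 3 surrogate variables (SE 0.35, adjusted p = 0.712, edgeR's quasi-likelihood test) and 0.66 without.

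Spag17 (chromosome 3, 99792670 to 100050638, plus strand) had 0.464, 1.18, 0.369 and 1.01 CPM in hpCTL and 1.01, 1.39, 1.49 and 0.991 CPM in hp708, replicates 1 to 4 each. Its highest library was hp708 replicate 3, and hpCTL replicates 1 and 3 stood apart at the low end. With 9 counts, the value of hpCTL replicate 3 had a 95% exact Poisson interval of 0.169 to 0.701 CPM, which covers counting error only. The log2 fold change was 0.67 (SE 0.42, adjusted p = 0.751). Exons of Wdr3 and Spag17os on the opposite strand cover 820 and 516 bases of the Spag17 exons (8.77% and 5.52%).

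Cfap126, Mlf1 and Tmem212 complete the set. Cfap126 (Flattop, a protein of the ciliary microtubules, chromosome 1, 170941487 to 170954536, plus strand) had 2.25, 3.02, 2.01 and 3.19 CPM in hpCTL and 3.44, 5.09, 2.26 and 2.44 CPM in hp708, replicates 1 to 4 each. It was the steadiest of the 10 genes, with a ratio of 2.53 between its highest and lowest library. Its log2 fold change was 0.21 (SE 0.16, adjusted p = 0.797, edgeR's quasi-likelihood test).

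Mlf1, myeloid leukemia factor 1 (chromosome 3, 67281418 to 67314232, plus strand), had 1.50, 2.06, 0.738 and 1.95 CPM in hpCTL and 2.61, 4.74, 1.36 and 1.40 CPM in hp708, replicates 1 to 4 each. It varied most, by a ratio of 6.42 between hp708 replicate 2 and hpCTL replicate 3. The log2 fold change was 0.49 (SE 0.26, adjusted p = 0.714).

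Tmem212, a transmembrane protein gene (chromosome 3, 27915549 to 27950563, minus strand), had 3.28, 2.54, 1.52 and 2.55 CPM in hpCTL and 2.03, 5.26, 2.43 and 3.14 CPM in hp708, replicates 1 to 4 each. hp708 replicate 2 alone exceeded the highest hpCTL library, and hp708 replicate 1 lay below 3 of the hpCTL libraries. Its log2 fold change was 0.19 (SE 0.23, adjusted p = 0.889, edgeR's quasi-likelihood test) and turned to -0.05 when hpCTL replicate 3 was left out.

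**Figure D1:**
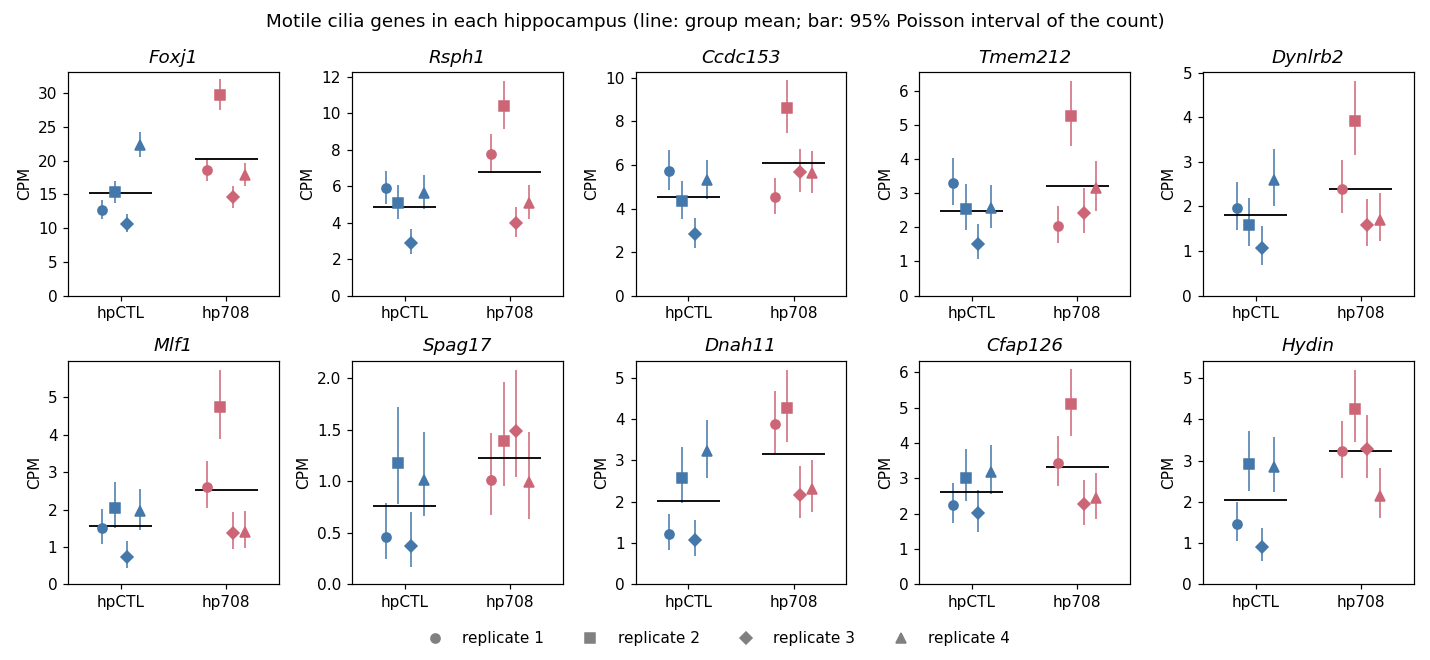
CPM (vertical axis, linear from 0, scale set per gene) of the 10 motile cilia genes in 4 hpCTL (blue) and 4 hp708 (red) libraries. Symbols mark the replicates, black lines the group means and thin bars the 95% Poisson interval of each count. The groups overlap in each panel. Foxj1 runs from 10.7 CPM in hpCTL replicate 3 to 29.7 CPM in hp708 replicate 2.

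The 10 genes had one library at each end in common. hpCTL replicate 3 was the lowest library for 10 of 10 genes, against 7.89% of all tested genes, and hp708 replicate 2 was the highest for 9 of 10, against 15.5% of all tested genes. The exception was Spag17. Averaged over the 10 genes, log2 CPM relative to the mean of each gene was -0.29, 0.02, -0.92 and 0.19 in hpCTL replicates 1 to 4. The corresponding averages were 0.24, 0.88, -0.07 and -0.05 in hp708 replicates 1 to 4. The other 6 libraries lay between -0.29 and 0.24. The SD of log2 CPM over the 8 libraries placed the genes between percentile 83.0 (Cfap126) and 95.6 (Mlf1) of all tested genes. This SD includes counting error, which is larger for genes with low counts, and no comparison with genes of like counts was made.

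The genes did not move as 1 block in hpCTL replicate 1. There Dnah11, Spag17, Hydin and Foxj1 lay 0.91, 0.86, 0.69 and 0.41 below their own means on the log2 scale, while Tmem212, Ccdc153 and Rsph1 lay 0.29, 0.16 and 0.11 above theirs. In the library labelled hp708 replicate 1, Dnah11, Mlf1 and Rsph1 lay above their means (0.70, 0.52 and 0.50) and Tmem212 and Ccdc153 below (-0.39 and -0.17). In hp708 replicate 3, Spag17 and Hydin were above their means (0.67 and 0.44) and Rsph1 and Mlf1 below (-0.46 and -0.38). These within-library differences were not tested, and the lowest counts carry wide counting intervals.

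**Figure D2:**
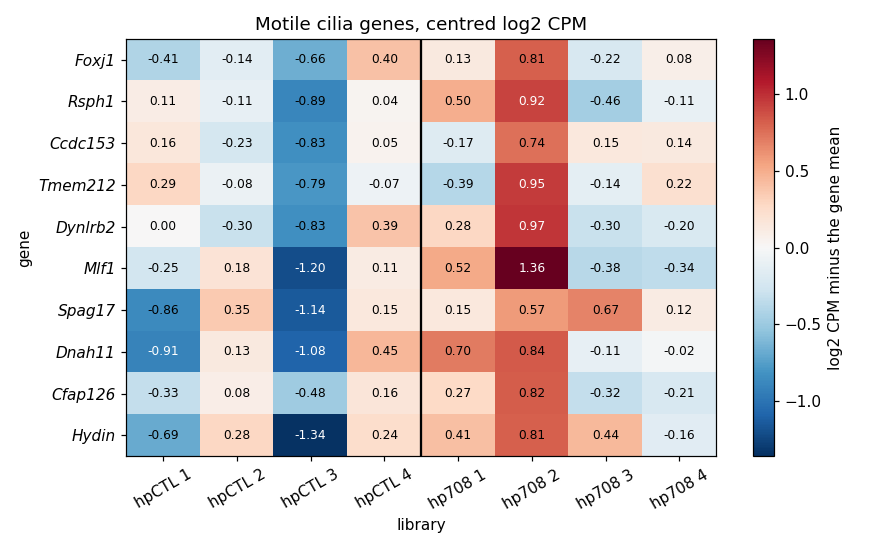
Log2 CPM minus the mean of each gene over all 8 libraries (colour, red higher, blue lower), for the 10 genes (rows) in each library (columns, hpCTL left and hp708 right of the line). The hpCTL 3 column is negative for each gene, down to -1.34 for Hydin, and the hp708 2 column is positive for each gene, up to 1.36 for Mlf1.

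Whether neuronal overexpression of miR-708-5p altered these genes was asked by comparing hp708 with hpCTL. All 10 genes had a higher fitted level in hp708, in the fit with 3 surrogate variables (46.8% of all tested genes were higher) and in the fit without them (47.1%), but none of the differences passed the threshold. The median log2 fold change of the 10 genes was 0.40 with surrogate variables and 0.45 without, against -0.01 for all tested genes in both fits. Since the same libraries are low or high for nearly all of the 10 genes, their common direction is not a count of independent observations. At an adjusted p below 0.05, edgeR's quasi-likelihood test called 0 of the 10 genes and 1 of all 17252 (0.0058%), the immunoglobulin segment Igkj1, named here after its value was seen. At an unadjusted p below 0.05 the same edgeR test had 2 of the 10 higher in hp708, Rsph1 and Dnah11, where 2.82% of all tested genes were higher and 4.87% lower at that level. Without surrogate variables it had 0 of 10, where 0.858% of all tested genes were higher. The likelihood ratio test with surrogate variables and DESeq2 without them called 0 of the 10 as well. DESeq2 with 3 surrogate variables called 0 of 9 and gave no adjusted p for Spag17. The CPM of the groups overlapped for each of the 10 genes, while they did not overlap for 1.51% of all tested genes.

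The size of the difference rested in part on single libraries. The summed CPM of the 10 genes was 37.9 ± 11.0 in hpCTL and 52.1 ± 17.6 in hp708 (SD, n = 4 each), with 24.1 in hpCTL replicate 3 and 77.6 in hp708 replicate 2. Without hp708 replicate 2, all 10 genes were still higher in hp708, but the median log2 fold change was 0.29 with surrogate variables and 0.20 without, and 0 of the 10 had an unadjusted p below 0.05 in edgeR's test. Without hpCTL replicate 3 it was 0.23 with and 0.28 without surrogate variables. Without the library labelled hp708 replicate 1, all 10 were higher, with medians of 0.46 and 0.54. In that fit with surrogate variables 4 of the 10 had an unadjusted p below 0.05, where 5.44% of all tested genes were higher at that level and 56 genes were called in all, and the lowest adjusted p was 0.212 (edgeR's quasi-likelihood test). Without surrogate variables 0 of the 10 were at that level, and the lowest adjusted p was 0.999.

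**Figure D3:**
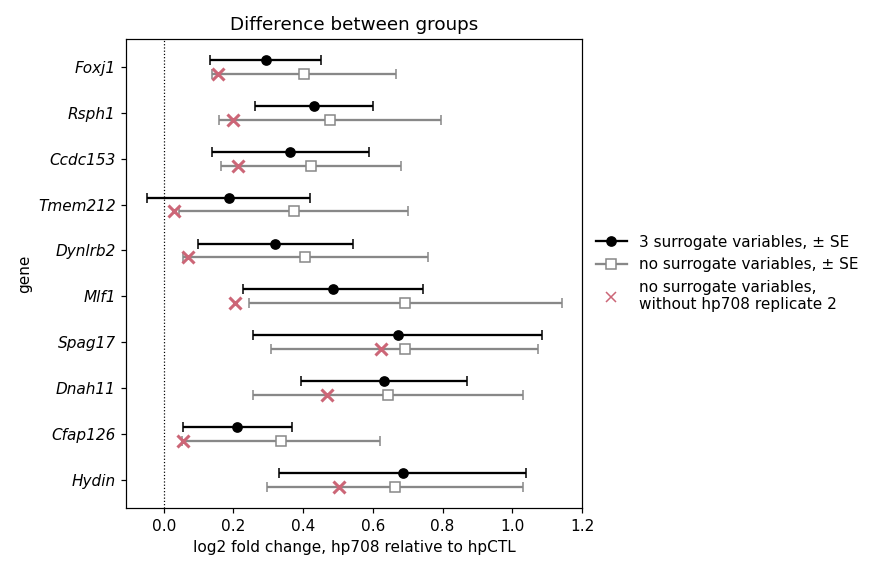
Log2 fold change of hp708 relative to hpCTL (horizontal axis) for the 10 genes, with 3 surrogate variables (filled circles) and without them (open squares), bars ± SE, and without both surrogate variables and hp708 replicate 2 (crosses). Values are positive throughout. Leaving out hp708 replicate 2 takes Mlf1 from 0.69 to 0.20 and Tmem212 from 0.37 to 0.03.

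The other genes of the motile cilium were followed in a list of 100, ordered by role, of which 90 were tested. With 3 surrogate variables, 73 of the 90 were higher and 17 lower in hp708, and their median log2 fold change was 0.15, against -0.01 for all tested genes. The edgeR quasi-likelihood test called 0 of the 90. At an unadjusted p below 0.05, 6 were higher and 0 lower, where 2.82% of all tested genes were higher and 4.87% lower. hp708 replicate 2 was the highest library for 37 of the 90 and hpCTL replicate 3 the lowest for 31. No test was made of the difference between this list and the 10 genes.

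Among the regulators of the programme, 7 of 8 tested genes were higher (median 0.15). Rfx3, an RFX factor that neurons also express, had 79.1 ± 6.13 CPM in hpCTL and 84.7 ± 17.1 CPM in hp708, with a log2 fold change of 0.13 (SE 0.12), and Rfx2 had -0.12 (SE 0.14). Mcidas, Cdc20b and Foxn4 were below the filter. All 10 genes of the outer dynein arm and its docking were higher (median 0.15), from which Dnal1 had 0.07 (SE 0.06) and Dnah9 0.14 (SE 0.08). Odad1, a docking subunit, had 5.34 ± 0.750 CPM in hpCTL and 7.11 ± 1.19 CPM in hp708 and a log2 fold change of 0.41 (adjusted p = 0.549). Of the inner dynein arm, 9 of 10 genes were higher, with the highest median of the roles, 0.33. The heavy chains Dnah1 and Dnah2 had 0.20 (SE 0.12) and 0.13 (SE 0.13), and Dnah6 and Dnah12 reached 0.53 and 0.65 with adjusted p of 0.594 and 0.618 in the edgeR test.

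In the nexin-dynein regulatory complex and its ruler, 8 of 9 genes were higher (median 0.15), and the more abundant Gas8 and Ccdc39 had log2 fold changes of 0.03 (SE 0.07) and 0.15 (SE 0.12). Of the radial spoke genes 8 of 12 were higher, or 10 of 12 without surrogate variables, with a median of 0.09. Rsph9 and Nme5 had -0.02 (SE 0.11) and 0.00 (SE 0.13), while Rsph4a and Cfap91 had 0.34 and 0.47, with adjusted p of 0.594 and 0.549. Of the central pair genes 8 of 9 were higher (median 0.25), with 0.08 (SE 0.09) for Cfap74 and 0.03 (SE 0.13) for Cfap69. The cytoplasmic factors that assemble dynein arms gave 8 of 12 higher (median 0.09), with -0.08 (SE 0.07) for Cfap298 and 0.05 (SE 0.08) for Spag1. Of the proteins inside or along the doublets, 15 of 20 were higher (median 0.16), with -0.17 (SE 0.09) for Nme7, 0.01 (SE 0.09) for Cfap141 and 0.35 for Cfap45 (adjusted p = 0.632). Without surrogate variables the higher genes were 6 of 8 among the regulators, 6 of 9 in the nexin-dynein complex, 10 of 12 among the assembly factors and 14 of 20 of the doublet proteins. Odad1, Dnah6, Dnah12, Rsph4a, Cfap91 and Cfap45 are the 6 genes with an unadjusted p below 0.05 and were named after their values were seen. Without surrogate variables the 2 genes at that level were Trp73 and Odad1, with log2 fold changes of 0.39 and 0.41, where 0.858% of all tested genes were higher.

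Intraflagellar transport carries cargo along every cilium, including the single primary cilium of neurons and astrocytes. Of its 31 genes 15 were higher and 16 lower in hp708, and the median log2 fold change was -0.01. Kifap3 and Kif3a, subunits of the kinesin-II motor with wider roles in neurons, had -0.03 (SE 0.05) and 0.02 (SE 0.05). Ift88 and Wdr19, 2 of the 31, had an unadjusted p below 0.05 in edgeR's test, at 0.19 and 0.19, where 2.82% of all tested genes were higher, and were named after their values were seen. Without surrogate variables 12 of the 31 genes were higher and 19 lower, and 0 were at that level. The average of these genes stayed between -0.06 and 0.06 of their means in each library, so the low and the high library of the motile cilia genes were not marked by them.

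Other ependymal markers were counted in every library. Of 13 tested, 10 were higher in hp708 (median 0.16), and hp708 replicate 2 was the highest library for 9 and hpCTL replicate 3 the lowest for 6. The secreted proteins Rarres2 and Mia and the cadherin-related Cdhr4 had log2 fold changes of 0.16 (SE 0.17), 0.31 (SE 0.28) and 0.13 (SE 0.14). Meig1, which was named after its values were seen, was the 1 gene of the 13 whose groups did not overlap (1.51% of all tested genes), with 1.32, 1.14, 1.23 and 1.54 CPM in hpCTL and 2.03, 2.35, 1.75 and 1.90 CPM in hp708. Its adjusted p was 0.556 in edgeR's quasi-likelihood test, for a log2 fold change of 0.59 (SE 0.19).

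Markers of the choroid plexus had a far wider range over the libraries. Ttr, which encodes transthyretin and is the main secreted product of that epithelium, had 25.6, 1485, 105 and 1872 CPM in hpCTL and 2743, 4106, 67.7 and 124 CPM in hp708, replicates 1 to 4 each. By the labels, Ttr was thus high in 2 libraries of each group and low in the other 2. Among the 2 high hp708 libraries is replicate 1, whose label is contradicted by another data sheet. The summed CPM of the 20 choroid plexus markers ran from 273 to 3308 in hpCTL and from 330.4 to 6641 in hp708, and none of the 20 was at 0 in a library. With surrogate variables 18 of the 20 were higher in hp708 (median 0.25) and without them 20 (median 0.75), and edgeR's test called 0 in both. The folate receptor Folr1 and Klotho (Kl) had log2 fold changes of 0.12 (SE 0.39) and 0.33 (SE 0.16). hp708 replicate 2, highest for most motile cilia genes, was the highest for 16 of the 20 markers. The 4 libraries with high choroid plexus markers were also the 4 with the highest averages of the 10 motile cilia genes, 0.02 and 0.19 in hpCTL replicates 2 and 4 and 0.24 and 0.88 in hp708 replicates 1 and 2 (log2 CPM relative to the gene means). In the 4 libraries with low markers this average was below 0, at -0.29 and -0.92 in hpCTL replicates 1 and 3 and -0.07 and -0.05 in hp708 replicates 3 and 4. Among these 4 the order was not the same, since hpCTL replicate 3, lowest for the motile cilia genes, had 435 summed CPM of choroid plexus markers and hpCTL replicate 1 had 273. In the 4 high libraries the order was the same, the markers summing to 2625 and 3308 CPM in hpCTL replicates 2 and 4. In hp708 replicates 1 and 2 they summed to 4626 and 6641 CPM. The part of choroid plexus RNA in the levels of the motile cilia genes was not tested.

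Markers of other cells are given by their counts and medians. hp708 replicate 2 was the highest library for 8 of 8 oligodendrocyte genes, whose summed CPM was 4599 to 6165 in hpCTL and 4769 to 8683 in hp708. With surrogate variables 6 of 8 of them were higher in hp708 (median 0.03) and without them 8 of 8 (median 0.19). With surrogate variables so were 7 of 10 astrocyte genes (median 0.07) and 10 of 10 genes of pyramidal and granule neurons (median 0.11). Of these, 1 and 2 had an unadjusted p below 0.05 in edgeR's test, where 2.82% of all tested genes were higher at that level. Without surrogate variables 6 of 10 and 8 of 10 were higher, and 0 were at that level in both lists. The 8 microglia genes were all lower, with a median of -0.27 and 6 at an unadjusted p below 0.05 in edgeR's test (4.87% of all tested genes were lower at that level), but without surrogate variables the median was -0.12 and 0 were at that level. Lower too were 7 of 8 subiculum genes (median -0.48, 3 at that level) and 7 of 8 of thalamus and habenula (median -0.14, 1 at that level), the latter 5 of 8 without surrogate variables. Without them 1 subiculum gene and 1 gene of thalamus and habenula were lower at that level. Of the endothelium 3 of 8 genes were higher (median -0.07), of meningeal and perivascular fibroblasts 4 of 10 (median -0.10, turning to 0.06 with 5 of 10 without surrogate variables) and of the lateral ventricle wall and striatum 5 of 8 (median 0.06). None of these genes was called, and their part in the values of the motile cilia genes was not tested.

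**Figure D4:**
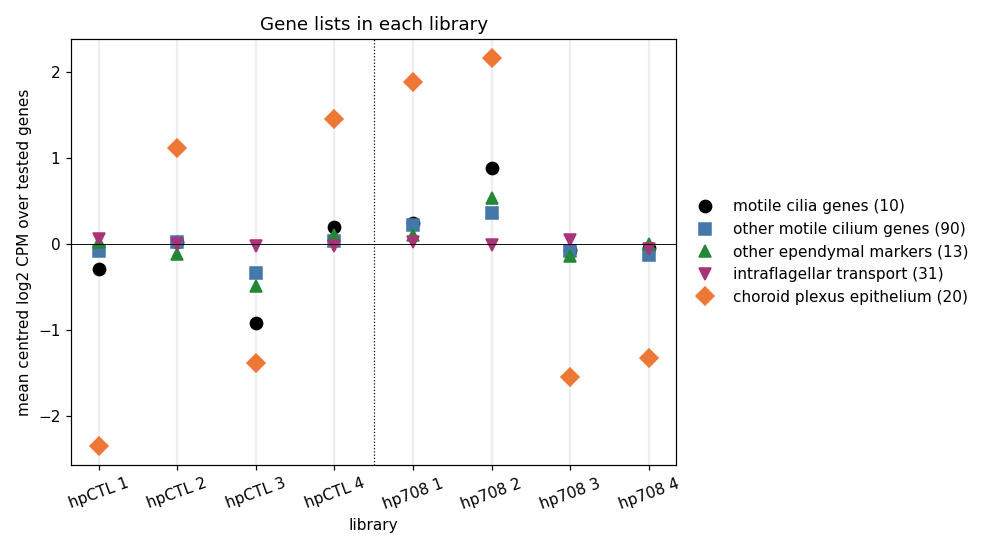
Mean log2 CPM relative to the mean of each gene (vertical axis) in each of the 8 libraries (horizontal axis), averaged over the tested genes of 5 lists with the number of genes in brackets. Choroid plexus markers (orange diamonds) span -2.35 to 2.16, the 10 motile cilia genes (black circles) -0.92 to 0.88 and the intraflagellar transport genes (purple triangles) -0.06 to 0.06.

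The genes whose pattern over the 8 libraries came closest to the average of the 10 were found by the root mean square (RMS) difference of centred log2 CPM. They were Tnfrsf23 (0.139), Gm36908 (0.141), Gm19935 (0.153), Lrrc74b (0.158), Cfap91 (0.180), Slc25a13 (0.194), Cfap43 (0.194), 2010007H06Rik (0.198), Gm14964 (0.199) and Zfp474 (0.208). The median over all other tested genes was 0.512, and the 10 genes themselves lay between 0.161 (Foxj1) and 0.380 (Spag17) from their average. Cfap91 is a radial spoke protein of the list of motile cilium genes, and Cfap43 encodes another protein of the ciliary axoneme. With 3 surrogate variables their log2 fold changes were 0.47 and 0.82, while the others lay between 0.20 (Slc25a13) and 0.55 (2010007H06Rik). All were picked for matching the average of the 10 genes, so a higher level in hp708 came with the choice.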

How the data were processed

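The polyA-RNA libraries of 4 hpCTL and 4 hp708 hippocampi were grouped by their sample labels. The authors aligned the reads to GRCm39 with STAR 2.7.8a and counted them per gene with featureCounts 1.6.4 on GENCODE M26, and deposited raw counts. Strand and multi-mapping settings are not given in the sources used here. Gene names, positions and exon lengths came from GENCODE M39 on GRCm39. The deposited counts were filtered with filterByExpr, normalized by TMM and tested with edgeR 4.0.16 (quasi-likelihood as in edgeR 3) and 3 svaseq surrogate variables (sva 3.50.0, R 4.3.3), with Benjamini-Hochberg adjustment over all 17252 tested genes and a threshold of 0.05. SEs were derived from the fold change and the test statistic. Log2 CPM used a prior count of 2. No 2 libraries were copies (chi-square per degree of freedom at least 10). P-values measure the spread between these mice that is left after the surrogate variables, where these were fitted. The functions were tested on simulated data.

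The 10 genes and all lists were chosen with earlier results of these data known. Named are these 10 genes, the 2 genes with the highest mean CPM per role, the first 3 genes of each cell type list (the ependymal and choroid plexus ones in the text), the 10 nearest patterns, Dynlrb1, Mir708 and Tenm4, and genes singled out as such. Alternatives changed the surrogate variables, test, tool, normalization, filter, replicate block and libraries included. Replicate numbers do not pair mice (correlation of deviations -0.041 to 0.018). Promoters and the microRNA came from RefSeq (GRCm38.p6).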

Additional observations from a re-analysis of the deposited data

Results flagged for a closer look

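Among 64 groups of 4 libraries, made of the 10 genes and the summed CPM of each list, 2 had a library far from the other 3 of its group by Dixon's criterion, which chance alone gives in about 1 of 20 groups, or 3.2 here. The summed CPM of the radial spoke genes was 51.0 in hpCTL replicate 3, while its group otherwise lay between 59.7 and 61.3. The summed CPM of the intraflagellar transport genes was 1277 in hpCTL replicate 1, against 1204 to 1210.4 in the others. No cause was tested for either.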

How the results depend on the processing

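The 10 genes were called in 0 cases under each of 12 alternatives and 16 fits without 1 library, and the other motile cilium genes likewise. Of 279 log2 fold changes of single genes, 278 stayed positive, up to 0.99, with a lowest adjusted p of 0.212 (edgeR). The exception was Tmem212, -0.054 without hpCTL replicate 3 and with 3 surrogate variables (0.67 without hp708 replicate 1). The median of the 10 genes ranged from 0.20 to 0.64 without 1 library. Spag17 was not tested when 10 counts were required in every library and had no adjusted p in DESeq2 with 3 surrogate variables.

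The count of all genes called, 1, was 0 with 0, 1 or 2 surrogate variables, with a minimum of 10 counts per library and with surrogate variables from scaled counts (chosen after seeing the data). It was 2 for DESeq2 without surrogate variables, 96 for DESeq2 with 3 of them, 127 for the likelihood ratio test, 12 when no filter was set and 3 when edgeR 4 quasi-likelihood was used. Without 1 library it ranged from 0 to 56 (without hp708 replicate 1). The cause was not tested. With the replicate block in place of the surrogate variables it was 1, and the median of the 10 genes was 0.43; the replicate numbers pair no mice. Counts of 9 to 683 per library limit the precision of the 10 genes.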
